A study of Homo sapiens with 18 samples.

Results

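The late response of A3B KO cells to PMA was read from 2 DRIP–seq libraries of the series, A3B KO treated with PMA for 6 h and A3B KO treated with DMSO, out of 18 samples in all. The DMSO list held 98432 regions and the PMA 6 h list 169126 on chromosomes 1 to 22 and X, of 757528 regions in the 6 DRIP–seq lists together. Both libraries came from MCF10A, a line of nontumorigenic breast epithelium that carries basal markers, in which a guide RNA that cuts the APOBEC3A and the APOBEC3B gene was delivered with puromycin selection, leaving a fusion of the genes in a line grown from a single cell. The cells therefore stand for 1 clone, and the DMSO control carries the same deletion as the treated cells. PMA, a phorbol ester, was given at 25 ng/ml for 6 h, with DMSO as the vehicle. Each library was made from pooled immunoprecipitations with its own input, and with 1 library per condition no replicate spread, test or p-value can be given. The other lists used for comparison were A3B KO at 2 h of PMA, with 120428 regions, and WT MCF10A treated with DMSO (91894 regions) or with PMA for 6 h (165877 regions).

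R-loops are structures in which a nascent RNA pairs with its template DNA strand and leaves the other DNA strand unpaired. The S9.6 antibody binds the DNA:RNA hybrid, so that DRIP–seq maps where such hybrids were abundant. PMA mimics diacylglycerol, activates protein kinase C and, through MAPK and NF-κB signalling, switches on immediate early genes before slower epithelial programmes follow. A3B (APOBEC3B) is a DNA cytosine deaminase of single-stranded DNA, and the study asked whether its loss changes where and for how long R-loops are found.

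Every region was 500 bp around a summit and carried 3 values: the pileup of fragments at the summit, its −log10 q, and its fold enrichment over the local background. The median pileup was 20 fragments in DMSO and 30 after 6 h, and the median fold enrichment was 4.31 and 4.64. The lowest local background in a list, which moves with the number of sequenced fragments, was 2.94 fragments in DMSO, 2.77 at 2 h and 4.45 at 6 h. The 6 h library was thus the deeper by this measure, 1.51 times its DMSO control, and its list was 1.72 times as long. List length and depth cannot be told apart from a change in hybrids here, so promoters were compared by their rank within each list, and regions and gene bodies also after the PMA 6 h list was shortened to its 98432 regions of highest fold enrichment, those of at least 4.22. Of 18 basal epithelial markers, 11 had a promoter region in DMSO and 12 at 6 h, against 5 and 4 of 14 luminal markers and 2 and 5 of 24 genes of other tissues. APOBEC3B itself had no region at its promoter or in its body in any of the 6 lists, and APOBEC3A none at its promoter, so the deletion could not be checked from these data.

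A promoter was represented by its strongest summit, in fold enrichment, within 2 kb of the start of a protein-coding gene. Of 19962 genes, 7195 had such a summit in DMSO and 7638 after 6 h, and the 5804 with one in both lists were ranked, with rank 1 the highest. Changes are log2 ratios of the DMSO rank to the PMA rank, so that 1 means a 2-fold higher place. By this measure 842 promoters (14.5%) ranked at least 2-fold higher after PMA and 880 (15.2%) at least 2-fold lower. A promoter far down the DMSO ranks cannot fall 2-fold, because the ranks end at 5804, and one at rank 1 cannot rise. Which call a promoter can receive therefore depends on its DMSO rank. In pooled material, hybrids in fewer cells and fewer hybrids per cell cannot be told apart. The counts rest on 751 and 709 distinct summits, because neighbouring genes can share a summit. The middle 50% of the changes lay between -0.59 and 0.58, and Spearman's rho between the ranks was 0.57 over these genes, some of which share summits. At the line, TUBA1B moved from rank 36 to rank 18 and was counted, and SLBP moved from 4887.5 to 2444 and was not.

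The sequences under the summits of 4 promoters that ranked higher and 3 that ranked lower are shown because these genes carry the account that follows. Each is 200 bases of GRCh38 centred on the summit, written 5′ to 3′ on the strand of the gene, with runs of 3 or more G in capitals, since a G-rich nontemplate strand is a known feature of R-loop-forming DNA. The PPP1R15A, TGFA, LAMB3 and CDCP1 windows are those of the PMA 6 h summits, at chr19:48872719-48872918 (plus strand), chr2:70553411-70553610 (minus strand), chr1:209651996-209652195 (minus strand) and chr3:45146009-45146208 (minus strand). The KRT5, FBL and TNS4 windows are those of the DMSO summits, at chr12:52518970-52519169 (minus strand), chr19:39846081-39846280 (minus strand) and chr17:40500858-40501057 (minus strand).
PPP1R15A: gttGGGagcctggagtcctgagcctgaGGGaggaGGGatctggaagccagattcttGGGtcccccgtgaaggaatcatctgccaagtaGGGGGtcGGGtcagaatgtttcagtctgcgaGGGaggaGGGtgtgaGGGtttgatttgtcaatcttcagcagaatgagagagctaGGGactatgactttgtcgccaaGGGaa
TGFA: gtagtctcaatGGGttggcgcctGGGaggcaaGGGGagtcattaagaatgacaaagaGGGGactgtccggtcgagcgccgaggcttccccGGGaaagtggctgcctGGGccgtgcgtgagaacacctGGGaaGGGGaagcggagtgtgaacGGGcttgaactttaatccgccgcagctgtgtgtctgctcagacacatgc
LAMB3: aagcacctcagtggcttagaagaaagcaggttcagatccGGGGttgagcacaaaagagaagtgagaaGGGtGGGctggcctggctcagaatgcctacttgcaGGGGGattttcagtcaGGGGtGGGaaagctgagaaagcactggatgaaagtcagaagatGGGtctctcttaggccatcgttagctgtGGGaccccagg
CDCP1: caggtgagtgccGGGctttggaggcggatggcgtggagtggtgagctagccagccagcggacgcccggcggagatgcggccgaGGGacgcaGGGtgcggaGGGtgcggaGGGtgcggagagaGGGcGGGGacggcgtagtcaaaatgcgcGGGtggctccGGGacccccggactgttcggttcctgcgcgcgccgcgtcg
KRT5: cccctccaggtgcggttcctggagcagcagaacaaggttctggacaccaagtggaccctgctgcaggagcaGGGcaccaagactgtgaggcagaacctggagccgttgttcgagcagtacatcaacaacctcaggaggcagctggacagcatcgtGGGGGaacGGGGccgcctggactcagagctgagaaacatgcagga
FBL: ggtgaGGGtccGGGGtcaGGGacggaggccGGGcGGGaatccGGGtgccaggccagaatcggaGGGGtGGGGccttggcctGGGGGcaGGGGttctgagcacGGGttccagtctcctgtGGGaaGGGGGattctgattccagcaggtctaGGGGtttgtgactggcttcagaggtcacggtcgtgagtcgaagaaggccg
TNS4: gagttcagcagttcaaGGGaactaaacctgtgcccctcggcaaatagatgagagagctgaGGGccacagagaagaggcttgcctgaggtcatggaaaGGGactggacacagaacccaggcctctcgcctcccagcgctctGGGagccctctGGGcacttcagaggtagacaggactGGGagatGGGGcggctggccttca
The 4 windows of promoters that ranked higher held 11, 9, 8 and 9 G runs in the order shown, and the other 3 held 3, 14 and 7. The GC skew, the difference of G and C over their sum on the strand of the gene, was positive in all 7, from 0.11 at KRT5 to 0.38 at FBL and PPP1R15A. The FBL window had the most G runs of the 7, so G runs did not separate the 4 windows from the other 3. They were not counted over all ranked promoters.

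The largest gains were at promoters of genes with varied roles. PPP1R15A, which encodes the GADD34 subunit that lets translation resume after stress, had fold enrichments of 4.37 in DMSO, 34.8 at 2 h and 16.3 at 6 h, and went from rank 4068 to rank 152 (log2 change 4.74). Its pileup was 22, 190 and 144 fragments in the same order. HLA-F, an MHC class I gene, went from rank 5102 to 161 (4.99), with fold enrichments of 3.48, 29.2 and 15.8, and its highest summit lay at a different place in the 2 lists, 1057 bp and 35 bp past the start. TGFA, the gene of the EGF receptor ligand TGF-α, had fold enrichments of 5.42, 16.8 and 18.2 and went from rank 2897 to 119 (4.61). SERPINB1, a protease inhibitor gene, had 7.76, 25.3 and 23.2 and went from rank 1243 to 75 (4.05). For each of these 4 genes the fold enrichment at 2 h was already above 3 times the DMSO value.

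CDCP1 and LAMB3 were among the promoters that reached the first 30 places of the 6 h list. CDCP1, which encodes a transmembrane protein phosphorylated by Src-family kinases, had fold enrichments of 13.7, 49.0 and 40.02 and went from rank 294 to 21 (3.81). LAMB3, the β3 chain of laminin-332 in the epithelial basement membrane, had 13.7, 48.3 and 38.8 and went from rank 291 to 26 (3.48). Their pileups in DMSO and at 6 h were 94 and 459 fragments for CDCP1 and 108 and 528 for LAMB3, where the background was 2.94 and 4.45 fragments. BIRC3, an inhibitor of apoptosis and NF-κB target, went from rank 2654 to 182 (3.87), HMGA1, an architectural chromatin protein gene, from 4936 to 304 (4.02), and the intermediate filament gene VIM from 3891 to 278 (3.81). The VIM summits of the 2 lists were 703 and 1774 bp past the start, so its gain is not at 1 fixed position.

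The largest losses were likewise at genes of varied roles. KRT5, the basal keratin, had fold enrichments of 14.8 in DMSO, 4.41 at 2 h and 4.08 at 6 h and went from rank 245 to 4192 (-4.10), at summits 1461 and 1517 bp past the start. FBL, the gene of the nucleolar methyltransferase fibrillarin, went from rank 305 to 3874.5 (-3.67) with 13.5 in DMSO, 4.35 at 6 h and no promoter region at 2 h. CYCS, which encodes cytochrome c, had 11.7, 6.52 and 3.90 and went from rank 445 to 4395 (-3.30). TNS4, a focal adhesion gene, had 18.4, 12.2 and 7.19 and went from rank 153 to 1477 (-3.27). In each of these 4 genes both PMA lists stood below DMSO in fold enrichment or lacked the region.

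Further losses were shared by neighbouring genes, for which a summit cannot be assigned to either. ZFP91 and its neighbours LPXN and ZFP91-CNTF share a summit that went from rank 199 to 3408 (-4.10), and HIGD2A and NOP16 one that went from 271.5 to 3229.5 (-3.57). DLG4, a postsynaptic scaffold gene, went from rank 147 to 2814 (-4.26) with its highest summit at -1561 bp from the start in DMSO and -558 bp after PMA. VEZF1, a transcription factor gene, changed by -3.32, UQCC4 by -3.37 and MSH4, a meiotic mismatch repair relative, by -3.49.

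**Figure D1:**
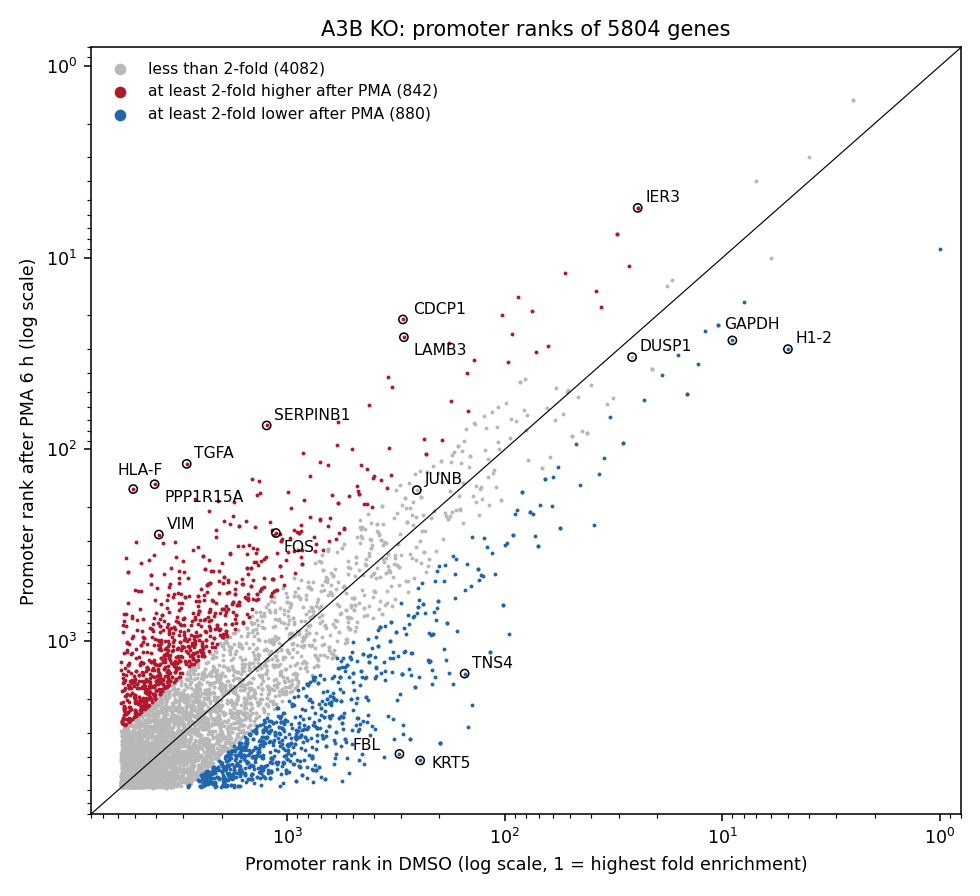
Promoter ranks of the 5804 ranked genes in A3B KO cells, DMSO on the horizontal and PMA 6 h on the vertical axis, both log scales with rank 1 at the far end and the diagonal marking no change; each point is 1 gene and circled genes are named in the text. PPP1R15A, TGFA and HLA-F lie high above the diagonal, KRT5, TNS4 and FBL far below it, and H1-2 and GAPDH stay within the first 30 ranks while lying under the diagonal.

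Immediate early genes, the first wave switched on by PMA, ranked higher as a group even at 6 h. Of 38, 26 were ranked, 13 stood at least 2-fold higher and 1 at least 2-fold lower, with a median of 0.98 against 0.00 over all ranked genes. Over all ranked promoters 14.5% were higher and 15.2% lower, the shares to set beside the counts of this and each later list. These shares were not matched to the DMSO ranks of any list. BTG1, an antiproliferative gene, went from rank 331 to 47 (2.82), ZFP36L1, an mRNA decay factor gene, from 181 to 28 (2.69), and its relative ZFP36 from 705 to 117 (2.59). NR4A2, a nuclear receptor gene, went from 590.5 to 95 (2.64) and IER3, whose summit FLOT1 shares, from 24.5 to 5.5 (2.16). The AP-1 genes were mixed. FOS went from 1127 to 273 (2.05) and FOSL1 from 1527 to 353 (2.11), while JUNB went from 254 to 163 (0.64) and FOSL2 from 742 to 390 (0.93), both short of 2-fold. MYC stood at 59 and 70 (-0.25), and CCN1, a matrix protein gene, was the 1 that ranked lower (-1.70, and 0.22 with summits within 1 kb).

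The 2 h list gives the earlier place of these promoters. The 2 h and 6 h lists share the DMSO control, so their values are set side by side only. Among the 4932 genes with a promoter summit in all 3 A3B KO lists, EGR1, a zinc finger activator gene, stood at rank 3677 in DMSO, 23 at 2 h and 870 at 6 h, with fold enrichments of 4.32, 49.4 and 8.57. HBEGF, a heparin-binding ligand of the EGF receptor, stood at 3458, 12 and 1776, with 4.57, 62.5 and 6.51. JUNB stood at 253, 15 and 163, with 14.6, 59.8 and 15.7. FOS stood at 1086, 57 and 273. LAMB3 at 290, 27 and 26 and CDCP1 at 293, 26 and 21 held their place between 2 h and 6 h, and ZFP36L1 at 181, 120 and 28 and TGFA at 2646, 226 and 119 stood higher at 6 h than at 2 h. MYC and NAXE had the reverse course, with MYC at 59, 2187 and 70 and NAXE, a metabolite repair enzyme gene, at 110, 2149 and 158.

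**Figure D2:**
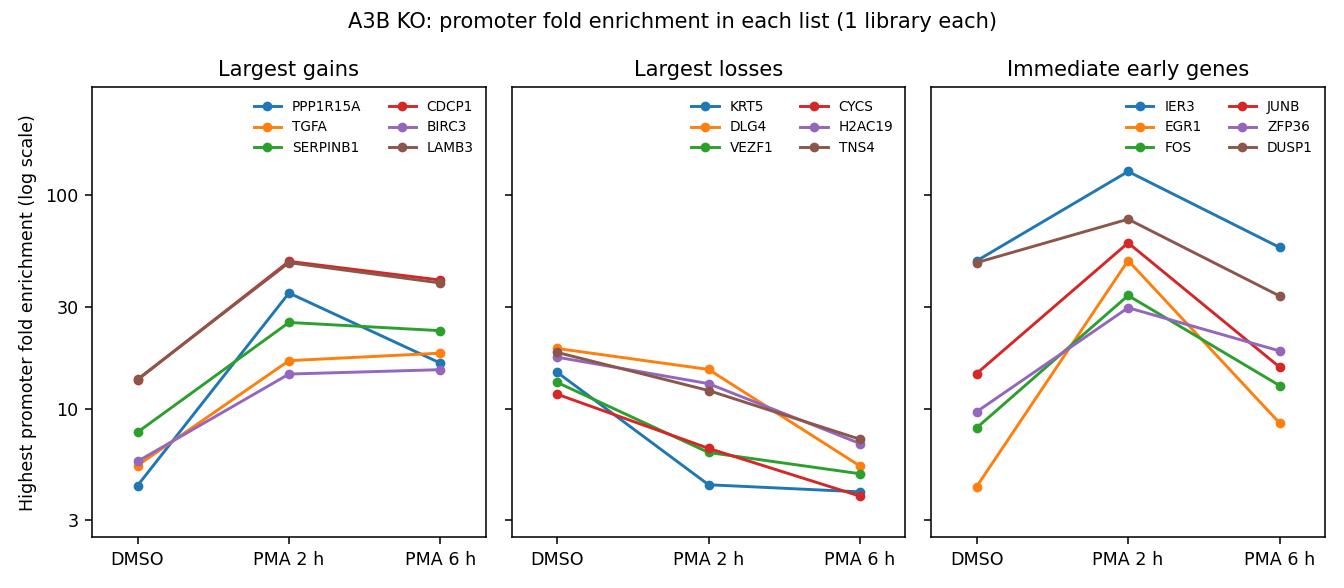
Highest promoter fold enrichment (log scale) in the DMSO, PMA 2 h and PMA 6 h lists of A3B KO cells, 1 library each, for 6 genes of the largest gains, 6 of the largest losses and 6 immediate early genes; lines join the values of a gene. EGR1, FOS and JUNB peak at 2 h, LAMB3 and CDCP1 remain near their 2 h value at 6 h, and KRT5 lies under 5 in both PMA lists.

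Negative regulators of MAPK signalling went the same way as the immediate early genes. Of 16, 9 were ranked, 4 stood at least 2-fold higher and none lower, with a median of 0.91. DUSP5, a nuclear ERK phosphatase gene, went from rank 1961.5 to 236 (3.06), the receptor signalling inhibitor genes SPRY2 and SPRY4 changed by 1.71 and 1.68, and ERRFI1, an inhibitor of the EGF receptor, by 1.62. DUSP6 went from 81 to 43 (0.91) and DUSP7 from 606 to 1199 (-0.98). Among EGF receptor genes and ligands, 4 of 12 were ranked and went both ways. TGFA and HBEGF (1.03) stood higher, AREG, the amphiregulin gene, went from rank 292 to 854 (-1.55) and EGFR itself from 780 to 3196 (-2.03), although ranked by pileup EGFR changed by 0.55.

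NF-κB targets and feedback genes had 15 of 30 ranked, with 4 at least 2-fold higher, 1 lower and a median of 0.17. Beside BIRC3, NFKB1, a subunit gene of NF-κB, went from rank 2508 to 778 (1.69), the chemokine genes CCL20 and CXCL1 changed by 1.53 and 1.22, and the cytokine gene IL1A by -1.08. A share of 4 in 15 stands above the 14.5% of all ranked promoters, on few genes. Proteases and serpins had only 3 of 19 ranked, among them SERPINB1 and MMP14 (1.06, and -0.78 with summits within 1 kb).

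The laminin-332 and hemidesmosome genes, which anchor basal cells to the basement membrane, had 5 of 11 ranked and a median of 0.80, with LAMB3 and ITGA6 (1.02) at least 2-fold higher, ITGA3 at 0.80, ITGB4 at 0.77, CD151 at -0.12 and none 2-fold lower. Of the keratin genes 6 of 16 were ranked, none of them 2-fold higher, and KRT5, KRT14 (-2.54) and KRT6A (-1.82) were at least 2-fold lower. The basal marker list as a whole, which holds genes of both kinds, had 7 of 10 ranked members at least 2-fold lower and 2 higher, with a median of -1.58 (-0.27 ranked by pileup and -0.87 by −log10 q). Beside the keratins these were EGFR, CAV1 (-1.94), SFN, which encodes a 14-3-3 protein (-1.77), the calcium-binding protein gene S100A2 (-1.06, but 0.04 by pileup) and the hyaluronan receptor gene CD44 (-1.39). Actin cytoskeleton and adhesion genes had 15 of 26 ranked, with 6 higher and 2 lower. MYH9, a nonmuscle myosin gene, went from rank 837 to 183 (2.19) and the focal adhesion gene ZYX and the tropomyosin gene TPM3 changed by 1.59 and 1.18, whereas CAV1 and TNS4 were the 2 lower. Luminal markers had 4 of 14 ranked and a median of -0.21.

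Replication-dependent histone genes, which lack introns and are transcribed in S phase, ranked lower. Of 69, 27 were ranked on 18 distinct summits after PMA, 16 stood at least 2-fold lower and 3 higher, and the median was -1.47. H1-2, the fifth promoter of the DMSO list, had fold enrichments of 69.8 in DMSO, 45.3 at 2 h and 35.8 at 6 h and went to rank 30 (-2.58). H2AC15 and H2BC15, which share a summit, had 22.3, 8.04 and 7.87 (-3.29), and H2AC19 had 17.4, 13.1 and 6.87 (-3.27). H4C13 was an exception and went from rank 3859.5 to 894 (2.11). Histone genes are near copies of each other, and reads may be placed among them with some error.

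Cell cycle and replication genes had 11 of 32 ranked, with 2 higher, 3 lower and a median of 0.12. CDK1 changed by -2.42, the replication helicase genes MCM5 and MCM7 by -1.71 and -1.52, and the G1 genes CCND1 and CDK6 by 1.48 and 1.08.

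Genes of growth and metabolism ranked lower more often than higher, where 15.2% of all ranked promoters were lower and 14.5% higher. The comparison was not matched for DMSO rank, and promoters high in DMSO have more room to fall than to rise. Of 70 ranked ribosomal protein genes among 86, 25 stood at least 2-fold lower and 6 higher, with a median of -0.44. RPL13 went from rank 209 to 1540 (-2.88) and RPL35 from 101.5 to 651.5 (-2.68), while RPS26 changed by 2.51, and RPS12 (with SLC18B1) went from rank 2.5 to 1.5 and RPL15 from 4 to 3. Proteasome genes had 7 of 22 ranked lower and 1 higher (median -0.63), with PSMD3 at -2.47, and translation factors 13 of 38 lower and 4 higher (median -0.35). Mitochondrial ribosomal protein genes had 13 of 45 lower and 4 higher (median -0.18), and oxidative phosphorylation genes 11 of 46 lower and 6 higher (median -0.11). Glycolysis genes had 4 of 11 lower and 1 higher (median -0.92). PFKP, a phosphofructokinase gene, went from rank 611 to 3283.5 (-2.43), HK2, a hexokinase gene, changed by -1.35 and GAPDH by -1.58, and LDHA alone stood above its DMSO rank, at 11 from 27.

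R-loop factors themselves had promoters in this comparison. Of 22, 12 were ranked, 6 lower and 4 higher, with a median of -0.62. The RNA helicase genes DDX21, DHX9 and DDX5 changed by -1.95, -1.71 and -1.50, and RNASEH2C and RNASEH2B, subunits of the nuclease that cleaves the RNA of hybrids, by -1.49 and -1.43. Among the higher were BRCA1, from rank 4687 to 1041.5 (2.17), RNASEH1, another nuclease of hybrid RNA (1.41), and FANCD2 (1.20). Chaperone genes (11 of 18 ranked) had 1 higher, HSPA9 (1.63), and 2 lower, DNAJA1 (-2.13) and HSPA8. Amino acid transport and stress genes (10 of 19) had ATF4 higher (1.98) and SLC7A5 lower (-1.39). p53 targets (8 of 16) had 2 higher, MDM2 (1.61) and TP53I3 (1.23), and XPC lower (-2.56). The remaining lists with at least 3 ranked members had medians between -0.27 and 0.63. Housekeeping genes had 1 higher and 1 lower of 12, cornified envelope genes 1 and 2 of 11, chromosome 19 zinc finger genes 3 and 5 of 54, the 17 ranked of 400 olfactory receptor genes 5 and none, and protein kinase C and D genes none of 3. APOBEC3C, APOBEC3D and APOBEC3F, the ranked APOBEC3 genes, changed by 0.15, -0.05 and 0.03. Among interferon-stimulated genes IRF9 (-1.10) and ISG20 (0.99) were ranked.

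**Figure D3:**
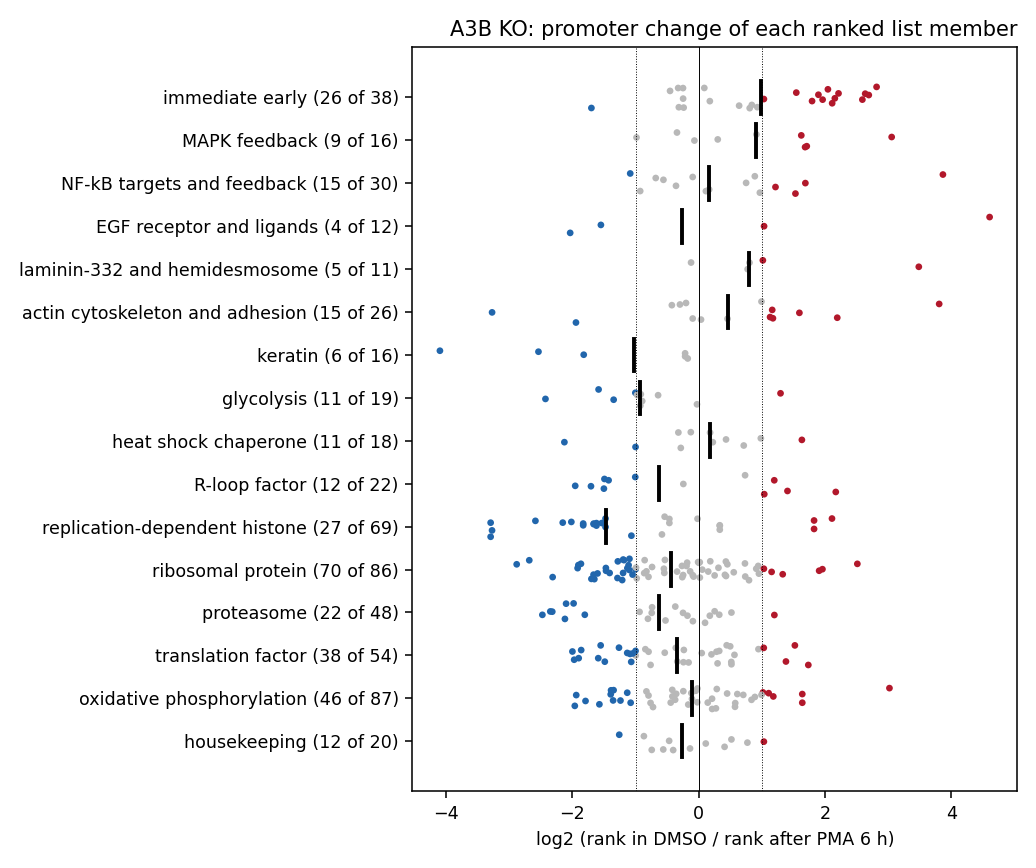
Promoter change, as log2 of the DMSO rank over the PMA 6 h rank, of each ranked member (point) of 16 gene lists in A3B KO cells, with the median as a black bar, the number ranked of all members in brackets and dotted lines at 2-fold. Immediate early and MAPK feedback genes lie to the right with medians of 0.98 and 0.91, and histone, keratin and glycolysis genes to the left with medians of -1.47, -1.02 and -0.92.

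The study measured R-loops by DRIP–qPCR at genes of its own choosing, and their places in the lists are given here. It presented JUNB, FOS and DUSP1 as PMA-responsive and GAPDH, HSPA8 and GEMIN7 as nonresponsive, with replicate DRIP–qPCR. The ranks here rest on 1 library per condition. PHLDA1, a pleckstrin-related gene, went from rank 93 to 25 (1.90) with fold enrichments of 24.8, 30.7 and 39.7 in DMSO, at 2 h and at 6 h. DUSP1, the phosphatase gene that shuts off MAPKs, stood at 26 and 33 (-0.34) with 48.3, 77.2 and 33.7. GADD45A, a growth arrest gene, stood at 79 and 66 (0.26) with 26.9, 31.7 and 23.8. GAPDH went from rank 9 to 27 (-1.58) with 63.3, 33.8 and 38.2, and HSPA8, the constitutive Hsp70 gene, from 12 to 24, a change at the 2-fold line, with 56.3, 61.5 and 39.9. The linker histone genes H1-4 and H1-5 changed by -1.83 and -1.62, NAXE by -0.52, PIM3 by -0.45, GEMIN7 by -0.84 and DDX1 by 0.73. In all, 2 of the 14 ranked genes stood at least 2-fold higher, FOS and PHLDA1, and 5 lower. TFF1 had no region at its promoter or in its body in the DMSO and 6 h lists.

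At the amplicons themselves the lists gave values for most primer pairs. The DUSP1 product at chr5:172770934-172771099, 179 bp past the start, lay under regions with fold enrichments of 7.65, 44.3 and 18.6 in DMSO, at 2 h and at 6 h, which is a different course from the gene's highest summit 1095 bp past the start. The FOS product at chr14:75280076-75280162 lay under regions of 4.30 and 24.5 in DMSO and at 2 h, and under none at 6 h. SYT8 had no promoter region, but its product lies 7243 bp into the gene at chr11:1835473-1835629, and the regions over it had 17.5 in DMSO, none at 2 h and 2.42 at 6 h. The PHLDA1 product lay under regions of 24.8 in DMSO, 30.7 at 2 h and 28.1 at 6 h. The highest PHLDA1 promoter value at 6 h was therefore at another summit. The H1-4 product lay under regions of 54.2 in DMSO and 29.5 at 2 h, and under none at 6 h. Each region is only the 500 bp around a summit, and FOS and H1-4 both had a promoter summit elsewhere at 6 h. A product under no region is therefore not shown to have lost its signal. No region of any list covered the JUNB product.

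A promoter can also be present in only 1 of the lists. With equal list lengths, 960 promoters had a summit after PMA and none in DMSO, and 3177 had one in DMSO and none after PMA. Of the strongest after PMA, L3MBTL1, a chromatin reader gene, had fold enrichments of 12.2 at 2 h and 13.8 at 6 h, and ELK3, an ETS factor gene of the MAPK pathway, 18.6 and 12.4. CTXND2 (13.8), ASAH2 (13.3) and TCTN1 (12.1) had a promoter region at 6 h but none at 2 h. The strongest in DMSO alone were KRT5, MSH4, CYCS, KCTD3, SELENOW and HOMER1, with 10.9 to 14.8. All 6 had weaker regions in the PMA list as deposited, between 3.48 and 4.21, below the fold enrichment at which that list was shortened. As deposited, the counts were 1834 and 1391, so which side held more promoters of its own turned on the list length.

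The whole lists moved away from promoters. Of the DMSO regions, 9.65% had their summit within 2 kb of a protein-coding start (95% Wilson interval 9.47 to 9.84, which covers counting error only), against 5.59% of the equal-length PMA 6 h list (5.45 to 5.73) and 6.08% of that list as deposited. Among the 20000 regions of highest fold enrichment the share was 13.1% in DMSO and 6.82% after 6 h. Intergenic regions made up 28.3% in DMSO and 32.0% of the equal-length list, and bodies of protein-coding genes 51.5% and 50.4%. The promoter share at 2 h was 7.92%. In WT the promoter share was 9.85% in DMSO and 5.46% of the equal-length 6 h list. The number of promoter regions was 9500 in DMSO, and after PMA 10279 as deposited and 5501 at equal length. Among the 20000 highest folds it was 2618 and 1363.

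How many regions had a partner in the other list turned on list length. As deposited, 71501 of the 98432 DMSO regions (72.6%) overlapped a PMA 6 h region, and 26931 (27.4%) did not. Among the 1690 DMSO regions with a fold enrichment of at least 10, 42 had no PMA partner (2.49%). In the other direction 92302 PMA regions (54.6%) had no DMSO partner, and so had 1273 of the 4479 with at least 10 (28.4%). Few regions of at least 20 lacked a partner, 16 of 258 after PMA and 7 of 303 in DMSO. At equal list lengths the shares without a partner were alike, 48.5% of DMSO and 49.1% of PMA regions, and both were 61.9% among the 20000 highest folds of each list.

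Regions in gene bodies, from 2 kb past the start to the end, were relatively more frequent in long genes after PMA. At equal list lengths, 586 of 13921 genes with a body region had at least 5 more regions after PMA (4.21%) and 659 at least 5 fewer (4.73%). Genes of up to 20 kb held 7686 body regions in DMSO and 4205 after PMA, a ratio of 0.547, and the ratio was 0.778 at 20 to 50 kb, 0.939 at 50 to 100 kb, 1.11 at 100 to 300 kb and 1.39 above 300 kb. As deposited every length class held more regions after PMA, 8163 up to 20 kb, 18593 at 20 to 50 kb, 20875 at 50 to 100 kb, 31049 at 100 to 300 kb and 15697 above, so that the lower counts in shorter genes hold only at equal list lengths. Of the 586 genes with more regions, 233 were of 100 to 300 kb and 270 longer. Their median length was 277 kb, against 45.6 kb for the 659 with fewer and 42.1 kb for the 12676 with neither change. A DMSO promoter region was present in 28.2% of the genes with more regions, 65.1% of those with fewer and 41.6% of those with neither change. Distances within genes moved the same way, with 19.5% of genic regions between 2 and 10 kb from the start in DMSO and 15.1% after PMA, and 8.27% and 12.4% beyond 200 kb. As deposited, 3064 genes had at least 5 more regions and 67 at least 5 fewer.

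**Figure D4:**
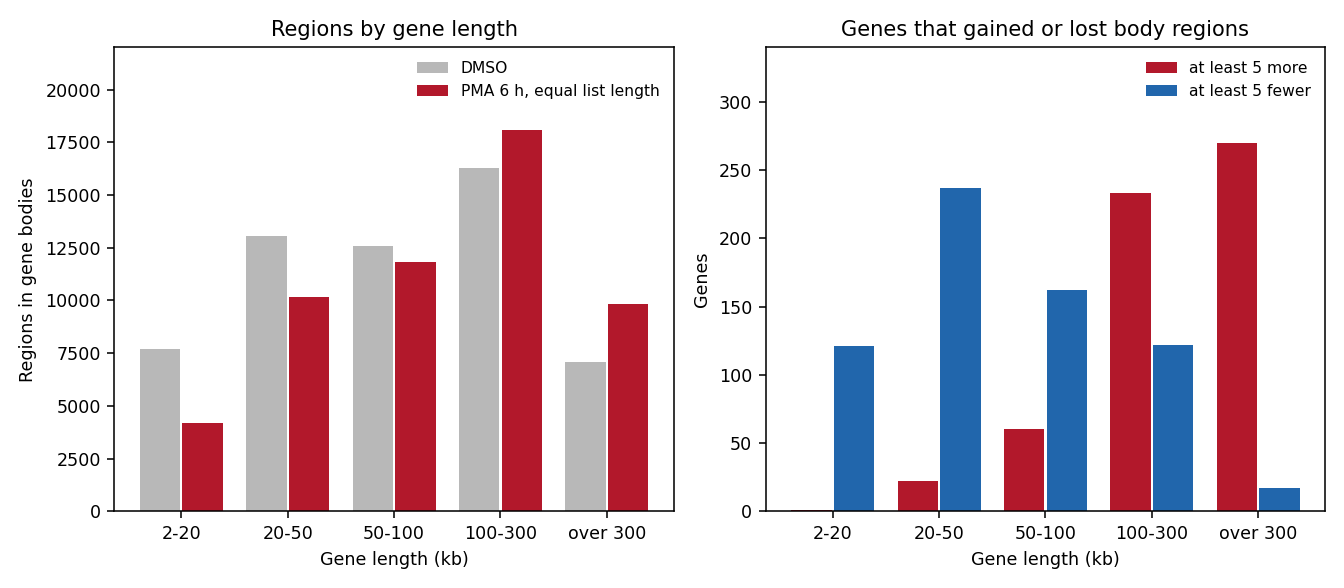
Regions in bodies of protein-coding genes by gene length in A3B KO cells, for DMSO and for the PMA 6 h list cut to equal length (left), and the number of genes with at least 5 more or at least 5 fewer body regions (right). At equal length genes of up to 20 kb go from 7686 to 4205 regions (8163 as deposited) and genes over 300 kb from 7080 to 9846 (15697 as deposited), and genes with more regions outnumber those with fewer, at 270 against 17, in the longest class.

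The genes with the most added body regions were very long genes known for neuronal or muscle roles, and RBFOX1, DMD and PTPRD had no promoter region in either list. RBFOX1, a splicing factor gene, had 66 body regions in DMSO, 85 at 2 h and 94 at 6 h at equal list lengths. DMD, the dystrophin gene, had 20, 29 and 41, NRXN3, a synaptic adhesion gene, 10, 15 and 29, and PTPRD, a receptor phosphatase gene, 20, 24 and 40. CNTNAP2 had 32, 31 and 51. Some shorter genes were also among the 586. PRKCH, the gene of protein kinase C η, had 5, 14 and 20, LAMB3 5, 19 and 11, and CDCP1 3, 7 and 12. The laminin gene LAMA3 had 13 and 18 in DMSO and at 6 h. PRKCH thus had more regions in the body with no promoter region in DMSO or at 6 h.

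At equal list lengths the genes with fewer body regions were mostly shorter than those with more. Their median length of 45.6 kb was close to the 42.1 kb of genes with neither change. ITGB4, the β4 integrin of hemidesmosomes, had 23 body regions in DMSO, 4 at 2 h and 4 at 6 h, although its promoter went from rank 154 to 90. Its strongest body region had fold enrichments of 5.32 and 5.44 in DMSO and at 6 h, and 18 regions were present in the 6 h list before it was shortened. SLC7A5, the gene of the amino acid transporter LAT1, had 19, 0 and 2, and 4 as deposited. SLC16A3, a lactate exporter gene, had 17, 16 and 4, TNS4 19, 11 and 9, and RRM2, a ribonucleotide reductase gene, 16, 9 and 7. HOOK2 had 43, 29 and 24. PDXDC1, with 103, 92 and 83, NBPF14, with 32 and 14 in DMSO and at 6 h, and GOLGA8A and GOLGA8B, with 19 and 2 and with 21 and 3, belong to duplicated families, where reads can be split between copies. At least 5 fewer body regions were found in 5 of 17 glycolysis genes and 10 of 48 translation factors with a body region, against 4.73% of all. In chromosome 19 zinc finger genes it was 9 of 189, close to the share of all.

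Sequence under the promoter summits differed between the directions. The median GC content of the 500 bp around the DMSO summit was 51.4% for the 842 promoters that ranked higher, 60.4% for the 880 that ranked lower and 55.6% for the other 4082. Around the 6 h summit it was 49.8%, 60.0% and 53.8%. The observed over expected CpG ratio, near 1 where CpG is not depleted, was 0.508, 0.665 and 0.554 around the DMSO summits. GC skew on the strand of the gene was 0.054, 0.083 and 0.058. Summits lay downstream of the start in 55.8% of the promoters that ranked higher and 67.0% of those that ranked lower. The highest summit of the 2 lists lay within 250 bp of the other in 73.4% and 80.6% of them. Over whole lists, the median GC was 46.0% in DMSO and 44.8% after 6 h, and 43.6% for the PMA regions without a DMSO partner.

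Short motifs were searched on both strands as letters only. The pattern TGANTCA takes in the AP-1 site, the phorbol ester response element, but is looser than that site. In the 500 bp around the 6 h summits it was present in 8.79% of promoters that ranked higher, 7.50% of those lower and 8.15% of all ranked. In the RefSeq promoters (GRCh38.p14) from 250 bases before to 50 after the start, matched for 4536 ranked genes, it was present in 3.48%, 3.71% and 5.07%, and in 7.76% of all 27305 promoters in that table. CCAAT was present in 38.1% and 39.0% of RefSeq promoters that ranked higher and lower, and TATAAA in 7.75% and 5.71%. Around the DMSO summits TGANTCA was present in 9.62% of the promoters that ranked higher, 6.93% of those that ranked lower and 7.87% of all. The order of the groups thus differed between the summits and the gene starts.

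The same comparison in WT, with its own DMSO control, gives a second view of each promoter. Of 5573 genes ranked in WT, 4556 were ranked in both lines. Of the 677 promoters higher in A3B KO and ranked in WT, 262 were at least 2-fold higher in WT too, which is 38.7% of the A3B KO set and 33.8% of the WT set, where 14.9% of all genes ranked in both lines were higher in A3B KO and 17.0% in WT. Of the 802 that were lower, 303 were lower in WT, 37.8% and 32.9% of the sets, against 17.6% and 20.2% of all. Another 62 were higher in A3B KO and lower in WT, and 62 the reverse. LAMB3 (3.48 in A3B KO and 5.50 in WT), CDCP1 (3.81 and 3.12) and PHLDA1 (1.90 and 2.26) were higher in both, and KRT5 (-4.10 and -5.53) and H2AC19 (-3.27 and -3.63) lower in both. JUNB changed by 0.64 in A3B KO and 2.40 in WT, BTG1 by 2.82 and -0.71, and FBL by -3.67 and 0.03. ITGB4 had 23 and 4 body regions in both lines. With 1 library per condition, whether any change differs between the lines was not tested.

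**Figure D5:**
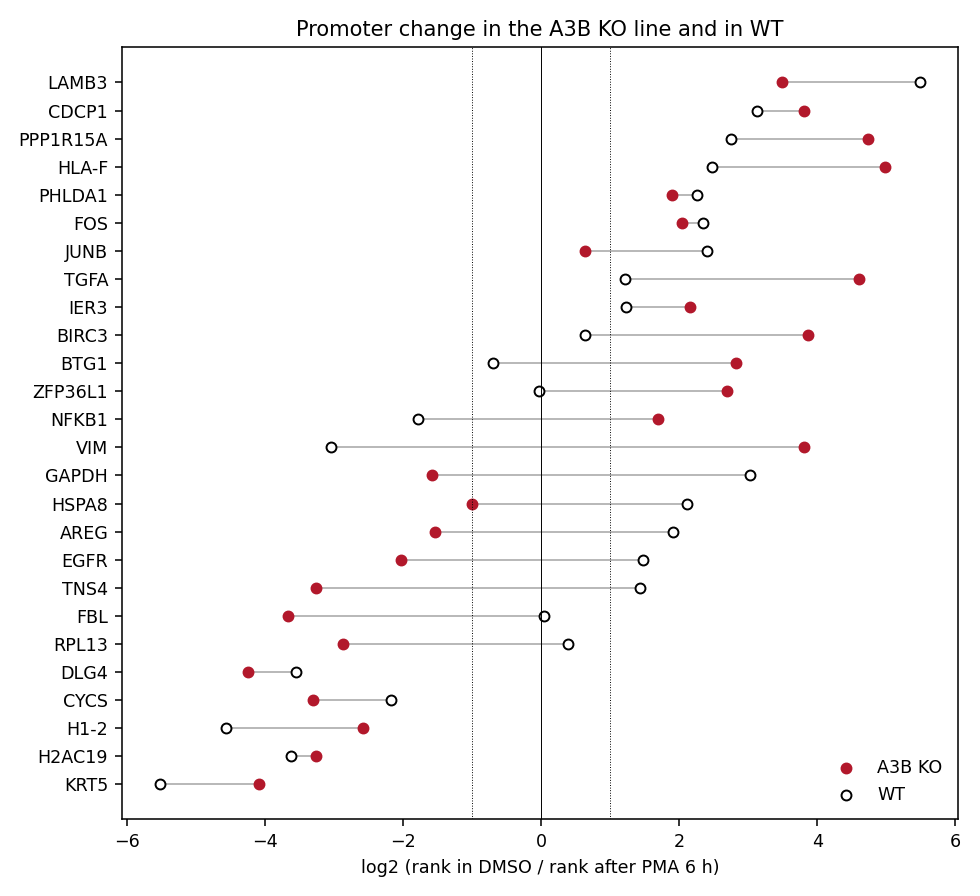
Promoter change from DMSO to PMA 6 h in A3B KO (filled) and in WT (open) for 26 genes named in the text, as log2 of the DMSO rank over the PMA rank, with dotted lines at 2-fold; each point is 1 pair of libraries. LAMB3, CDCP1, H2AC19 and KRT5 lie on the same side in both lines, and VIM, at 3.81 and -3.05, and GAPDH, at -1.58 and 3.03, on opposite sides.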

How the data were processed

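DRIP–seq regions of 2 A3B KO libraries, DMSO and PMA 6 h, were analysed, with A3B KO PMA 2 h, WT DMSO and WT PMA 6 h beside them. WT PMA 2 h was used only where all 6 lists were counted or searched. The authors trimmed and aligned the reads, removed duplicates and exclusion-list regions, and called regions with MACS2 at a q of 0.01 against input. Per the submitters' processing notes the tools included cutadapt 1.13, SAMtools 1.3.1 and MACS2 2.2.6, and the study's methods name another MACS2 release. The deposited lists give for each region a pileup signal (fragment coverage at the summit), −log10 p-values and −log10 q-values, and the fold enrichment, a ratio to local background. Read totals are not given in the sources used here. Regions called in 1 library carry no replicate error, and a deeper library gives a longer list.

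Summits were assigned to protein-coding genes of GENCODE 44 (GRCh38, the build of the files), within 2 kb of the start or in the body beyond it. Mitochondrial entries were left out. Genes with a summit in both lists were ranked by highest fold enrichment, and a rank ratio of 2 was counted as higher or lower. Lists were also cut to equal length by fold enrichment. Regions sharing at least 1 bp were taken as overlapping. Named genes are the study's DRIP genes, the largest rank changes among promoters that reached rank 1000, the strongest found in 1 list alone, the largest body changes, and members of the 31 gene lists with the largest changes. TNS4, some further list members and the threshold genes were named after their values were seen. The members and lists were chosen with earlier results of these data known. Promoter sequences were from RefSeq and GRCh38. Code was tested on simulated data and against bedtools 2.31.1, with Python 3.11.15, pandas 2.3.3 and numpy 2.4.6. The alternatives were other ranking values, list lengths, promoter windows and thresholds. 2 of them, the 20000 highest folds and a pileup of at least 6 times the background floor, were added after seeing the data. The 3 ChIP–seq lists were not used.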

Additional observations from a re-analysis of the deposited data

Results flagged for a closer look

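For 12 genes named above the promoter ranked at least 2-fold higher in 1 line after 6 h of PMA and at least 2-fold lower in the other, each line against its own DMSO control. With 1 library per condition these differences between the lines were not tested, and 62 promoters were found in each of the opposite directions among the 4556 ranked in both lines. VIM changed by 3.81 in A3B KO and by -3.05 in WT, NFKB1 by 1.69 and -1.78, RNASEH1 by 1.41 and -1.15, and CDK6 by 1.08 and -1.09, as log2 rank ratios. The other 8 were lower in A3B KO and higher in WT. GAPDH changed by -1.58 in A3B KO and 3.03 in WT, HSPA8 by -1 and 2.12, and TNS4 by -3.27 and 1.43. The study presented GAPDH and HSPA8 as PMA-nonresponsive genes. EGFR changed by -2.03 and 1.47, and its ligand gene AREG by -1.55 and 1.90. RPL35 changed by -2.68 and 1.39, SLC7A5 by -1.39 and 1.18, and S100A2 by -1.06 and 1.58. The A3B KO changes of EGFR and S100A2 turned with the setting, to 0.55 and 0.042 ranked by pileup, and for S100A2 to 0.22 within 1 kb.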

How the results depend on the processing

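No paired analysis was possible because each condition has 1 library and the labels give no replicate numbers, so no library could be left out either. The cause of the changes given here was not tested. With summits within 1 kb, 540 promoters ranked higher and 556 lower, and ranked by pileup 564 and 536, which turned the order of the 2 counts. Promoters found after PMA alone numbered 1834 as deposited, 507 within 1 kb, 373 among the 20000 highest folds and 1569 at 6 times the background floor, and those in DMSO alone 1391 as deposited, 2116 with lists cut by pileup, 1604 among the 20000 and 1304 at 6 times the floor. As deposited and at 6 times the floor, the PMA list held more promoters of its own than the DMSO list. Genes with at least 5 more body regions numbered 3064 as deposited, 43 among the 20000 and 1592 at 6 times the floor, and with fewer 67, 34 and 52.

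The share of gene bodies differed by -1.08 percentage points, by -0.0021 as deposited, -1.55 by pileup and -2.12 with bodies from 1 kb, and turned to 0.44 among the 20000 and 0.34 at 6 times the floor. The promoter share differed by -4.06 points, with -3.57, -2.05 (pileup), -3.17 (−log10 q), -2.84 (1 kb), -6.28 and -4.63, and the intergenic share by 3.69, with 2.63 as deposited, 2.56 (pileup), 3.20 (−log10 q) and 3.14 (6 times). PMA regions without a DMSO region numbered 48314 at equal lengths, 12375 among the 20000 and 58764 at 6 times, and DMSO regions without a PMA region 47714, 12378 among the 20000 and 16952 at a −log10 q of at least 5.

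Of 169 list medians, 11 moved and 1 was counted as turned. Within 1 kb these were MAPK feedback at 1.62, proteases at -0.023 (turned) and the study's DRIP–qPCR genes at 0.35. By pileup they were EGF genes at 1.67, basal markers at -0.27 and histones at -0.84, and by −log10 q EGF genes at 0.83 and basal markers at -0.87. At a −log10 q of at least 5 they were NF-κB targets at 0.76 and amino acid genes at -0.70. Keratins were at -0.30 at equal lengths and -1.90 with 1 gene per summit. The EGF genes, from -0.26, and the DRIP–qPCR genes, from -0.49, changed sign as they moved. Some medians not counted as moved also changed sign. By pileup, chaperones went from 0.18 to -0.31, luminal markers from -0.21 to 0.37 and cell cycle genes from 0.12 to -0.11. Of single genes, EGFR turned to 0.55 and S100A2 to 0.042 by pileup, and CCN1 to 0.22, IRF9 to 0.27, MMP14 to -0.78 and S100A2 to 0.22 within 1 kb.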
